A study of Mus musculus with 24 samples.

Results

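The subunits of the receptors for GABA, glycine, glutamate and acetylcholine were followed across the retinas of 8 inbred mouse strains. Members were the protein-coding genes of the expression table whose symbols follow the naming of these receptors, which gave 63 of the 28802 genes. They comprised 14 subunits of the GABAA receptor, 3 GABA rho subunits, 2 GABAB subunits, 5 glycine receptor subunits, 4 AMPA, 5 kainate, 2 delta and 7 NMDA subunits, 7 metabotropic glutamate receptors, 10 neuronal nicotinic subunits and 4 subunits of the muscle nicotinic receptor. Grm6, Gabra6, Chrna9 and Chrnd were not analysed here.

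Total RNA was taken from the retinas of wild-type mice at postnatal day 28, and libraries were sequenced with 3 biological replicates for each strain. The laboratory strains were A/J, NZO/HlLtJ, NOD/ShiLtJ, C57BL/6J and 129S1/Svlmj, and WSB/EiJ, PWK/PhJ and CAST/EiJ descend from wild-caught mice. Ribosomal RNA had been removed and the library kit kept the strand of the RNA. The sex of the mice is not given in the labels. Values are counts per 1000000 reads of a library (cpm). The totals were read from the step between the lowest values, which stands for 1 read, and lay between 57607005 and 78150032 reads, with strain medians from 62595066 in C57BL/6J to 76606633 in CAST/EiJ. A value of 3 reads corresponds to 0.0384 to 0.0521 cpm. Over all genes the values of a library summed to between 332472 cpm, in WSB/EiJ, and 366570 cpm, in NOD/ShiLtJ. The libraries of CAST/EiJ summed to 342219 to 353339 cpm and those of PWK/PhJ to 345285 to 365061 cpm.

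Signals leave the photoreceptors through glutamate, which bipolar cells and horizontal cells receive through AMPA, kainate and metabotropic receptors, and bipolar cells pass them on to amacrine and ganglion cells, which carry AMPA and NMDA receptors. Amacrine and horizontal cells return inhibition through GABA and glycine, which open chloride channels built from GABAA, rho or glycine receptor subunits, while the GABAB receptor acts through G proteins. Acetylcholine is released in the retina by starburst amacrine cells and acts on nicotinic receptors, whose subunit composition differs between cell types.

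The libraries carried the transcripts of the retina. The 8 photoreceptor genes summed to 7589 to 11017 cpm per library, with C57BL/6J highest (10746, 10312 and 11017 cpm, against at most 10175 cpm), and those of bipolar cells (7 genes, led by Trpm1) to 415 to 598 cpm, with WSB/EiJ highest (598, 525 and 581 cpm, against at most 499 cpm). The bipolar sum of WSB/EiJ rested on Trpm1 (239 cpm) and Prkca (189 cpm), both highest there on average. Scgn was lowest there (10.5 cpm). In limma 1 of the 7 genes was higher in WSB/EiJ than in the other strains (3.18% of all genes). This rule was a difference of at least 1.5-fold at an adjusted p under 0.01. By the same rule 1 of the 8 photoreceptor genes was higher in C57BL/6J (3.62% of all genes). Amacrine cell genes (8, led by Pax6) summed to 235 to 287 cpm and Muller glia genes (6, led by Glul) to 784 to 1116 cpm, where the lowest NOD/ShiLtJ library and the highest of 129S1/Svlmj both measured 1077 cpm and the other strains lay below. The 9 ganglion cell genes, led by Nefl, summed to 167, 170.4 and 167 cpm in CAST/EiJ and to 199 to 285 cpm in the other strains, without overlap. The 5 horizontal cell genes, led by Sept4, were also lowest in CAST/EiJ without overlap, at 49, 46 and 47.8 cpm against 54 to 73.2 cpm, which came from Sept4 (22.6 cpm, against 33.2 cpm or more in the other strains), while Calb1, Onecut1, Onecut2 and Lhx1 were lower in at least 1 other strain than in CAST/EiJ. In whole retina, a change in the number of cells of a type and a change in RNA per cell cannot be told apart. Some libraries held RNA of neighbouring tissue. The 7 lens genes, led by Cryaa, reached 1619 cpm in 129S1/Svlmj replicate 2, 1821 cpm in NOD/ShiLtJ replicate 2 and 213 cpm in C57BL/6J replicate 2, against 4.91 to 84.6 cpm in the other libraries. The 5 oligodendrocyte genes, led by Mbp, reached 70.3 cpm in NOD/ShiLtJ replicate 3 and 38.2 cpm in NZO/HlLtJ replicate 1, against 8.3 to 15.7 cpm elsewhere. Genes of the pigment epithelium (6, led by Rgr) ranged from 10.3 cpm in PWK/PhJ replicate 3 to 83.1 cpm in WSB/EiJ replicate 1, and those of blood (5, led by Hbb-bs) from 7.45 to 30.7 cpm. Skeletal muscle genes (8, led by Acta1) summed to at most 4.61 cpm, and 7 of them had a mean under 0.5 cpm. Xist, which is transcribed from the inactive X chromosome of females, measured 962 cpm in 129S1/Svlmj replicate 3, 906 cpm in C57BL/6J replicate 3, 1081 cpm in PWK/PhJ replicate 2 and 1046 cpm in CAST/EiJ replicate 3, and at most 9.71 cpm in the other libraries.

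Levels of different subunits were compared per kilobase of annotated exon, a length that counts every exon of a gene's transcripts in GENCODE vM21. The authors name RefSeq for the counting, so these lengths may differ from those of the exons counted. By this measure the most abundant members were Chrna6, a nicotinic alpha subunit, with 12.4 cpm per kilobase, and Gabrr1, the rho1 subunit, with 11.4 cpm per kilobase. Among the next were the AMPA subunits Gria4 and Gria2 with 7.91 and 7.53, Gabbr1 of the GABAB receptor with 6.92 and the kainate subunit Grik1 with 6.89 cpm per kilobase. In 4 further families the gene with the highest cpm was Glra3 (2.45 cpm per kilobase) for glycine receptors, Grin2b (1.54) for NMDA receptors, Grm5 (1.93) for metabotropic glutamate receptors and Chrnb1 (0.52) for the muscle receptor. Per kilobase the order within a family was not always that of the cpm: Glrb, the beta subunit that anchors glycine receptors, stood at 4.58 and Grm7 at 2.94 cpm per kilobase.

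Summed over its members, the level of most families differed little between strains. GABAA subunits summed to 233 ± 5.56 cpm in 129S1/Svlmj (SD, n = 3) and 195 ± 1.9 cpm in CAST/EiJ, a ratio of 1.19, although A/J was lowest after median-ratio scaling or quantile normalization. The rho subunits summed to 54.4 ± 1.15 cpm in 129S1/Svlmj and 40.5 ± 2.17 cpm in CAST/EiJ, and GABAB subunits to 79.6 ± 2.24 cpm in PWK/PhJ and 63.7 ± 6.01 cpm in CAST/EiJ. Glycine receptor subunits summed to 61.7 ± 1.87 cpm in 129S1/Svlmj and 51.3 ± 2.05 cpm in CAST/EiJ, with NZO/HlLtJ lowest under both other scalings. These inhibitory families thus spanned 1.19-fold to 1.34-fold between strain means. AMPA subunits summed to 231 ± 4.67 cpm in 129S1/Svlmj and 194 ± 3.51 cpm in CAST/EiJ, with A/J lowest after median-ratio scaling and NOD/ShiLtJ after quantile normalization. Kainate subunits summed to 89.9 ± 0.15 cpm in NOD/ShiLtJ and 74.5 ± 2.25 cpm in C57BL/6J, and delta subunits to 21.3 ± 0.615 cpm in PWK/PhJ and 18 ± 0.907 cpm in A/J. NMDA subunits ranged from 74.9 ± 4.44 cpm in CAST/EiJ to 89.6 ± 2.64 cpm in 129S1/Svlmj. Among glutamate receptors the metabotropic family had the widest span, 1.37-fold, from 58.8 ± 0.358 cpm in CAST/EiJ to 80.4 ± 2.08 cpm in NZO/HlLtJ. Neuronal nicotinic subunits ranged from 75.9 ± 2.04 cpm in PWK/PhJ to 91.2 ± 3.29 cpm in NZO/HlLtJ, with WSB/EiJ highest after median-ratio scaling. The muscle subunits, of which Chrnb1 alone passed 0.5 cpm, ranged 3.5-fold, from 0.823 ± 0.139 cpm in NZO/HlLtJ to 2.88 ± 0.246 cpm in NOD/ShiLtJ, and C57BL/6J was lowest after quantile normalization. These sums describe the families and were not tested.

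**Figure D1:**
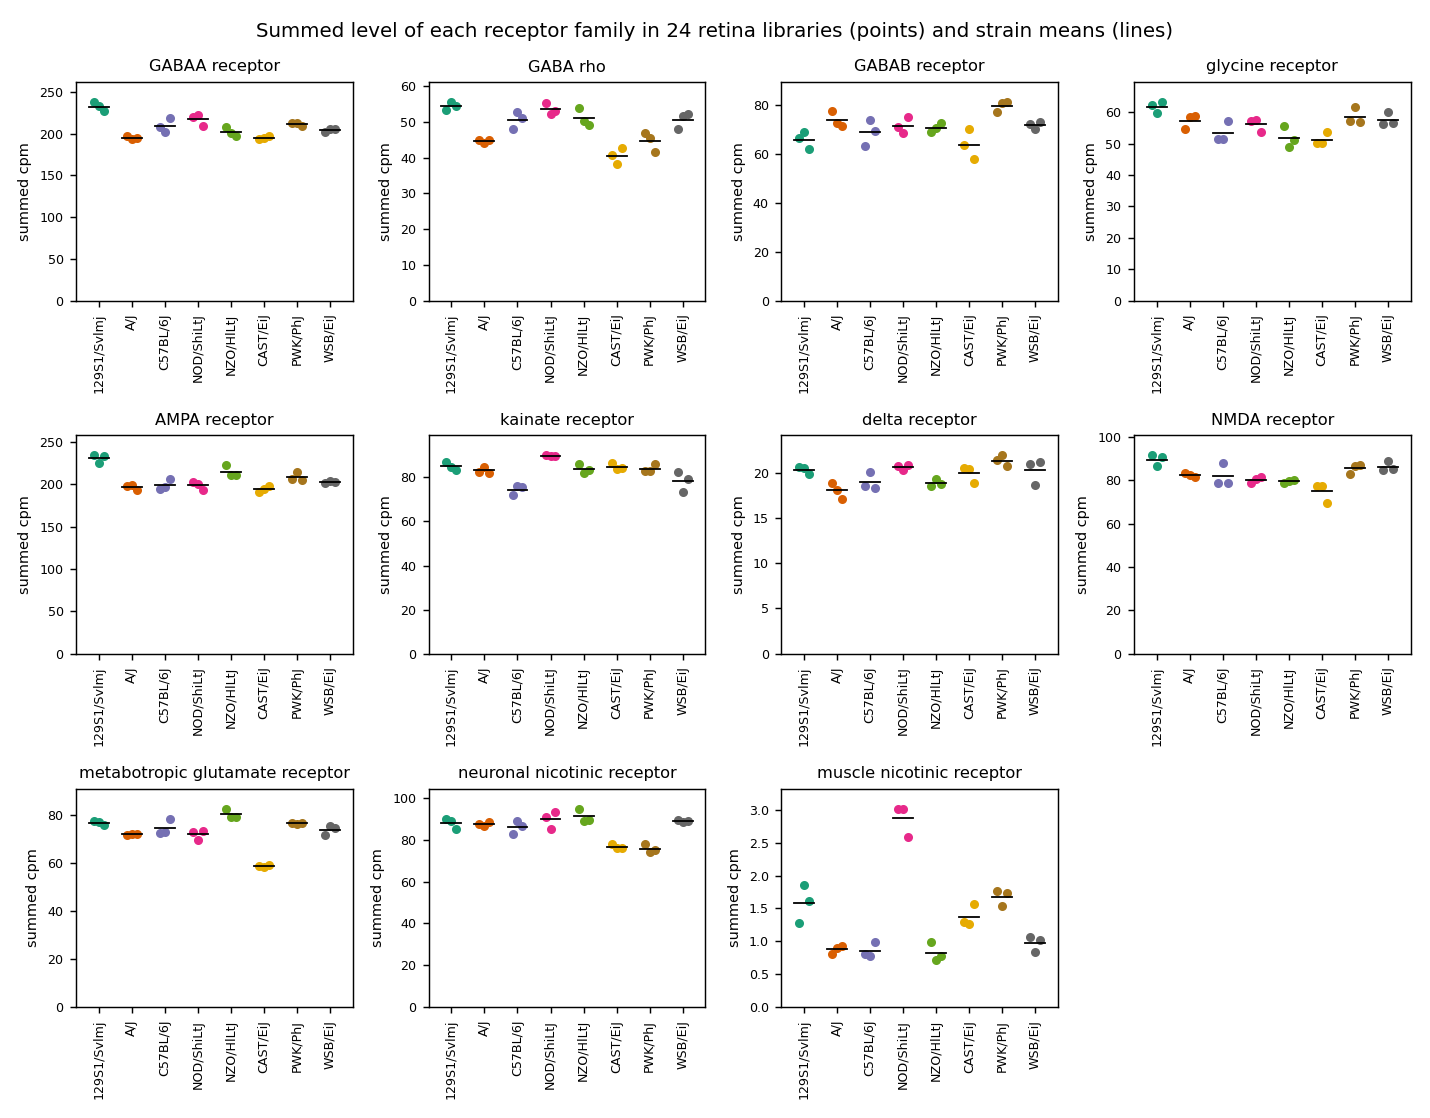
Summed cpm of the members of each receptor family (vertical axes, linear, from 0) in the 8 strains (horizontal axes); points are the 3 libraries of a strain and lines their mean. Metabotropic glutamate receptor sums of CAST/EiJ, with a mean of 58.8 cpm, lie below those of the other strains, and the muscle receptor sums of NOD/ShiLtJ, with a mean of 2.88 cpm, lie above them.

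To ask which subunits differed between strains, log2(cpm + 0.1) was fitted with limma over the 16400 genes that averaged 0.5 cpm or more, among them 55 of the 63 members. Its p-values measure a difference between strains against the spread of the biological replicates and were adjusted over all genes tested (Benjamini-Hochberg). The moderated F-test over the 8 strains gave an adjusted p under 0.01 for 46 of the 55 members, against 70.5% of all genes tested. The 9 members that did not pass were Gabrg1, Gabrg3, Glra2, Glra4, Grik4, Grik5, Grin1, Grm2 and Grm4. A difference of at least 2-fold between the highest and the lowest strain mean was also met by 11 members, 20% of the 55, against 20.1% of all genes. The share of members was therefore near the background. The median difference between the highest and lowest strain was 0.51 on the log2 scale for the members and 0.53 for all genes. Low genes contributed most of the large differences. Of the members with a mean of 0.5 to 2 cpm, 6 of 11 differed by at least 2-fold (42.0% of all genes at that level), as did 3 of 12 at 2 to 8 cpm (19.5%), 2 of 23 at 8 to 32 cpm (9.84%) and 0 of 9 above 32 cpm (6.7%), where all 9 passed the F-test alone in limma. By family, the 11 were 2 of 11 GABAA subunits tested, 1 of 3 rho, 1 of 5 kainate, 3 of 6 NMDA, 3 of 9 neuronal nicotinic subunits and Chrnb1. No GABAB, glycine, AMPA, delta or metabotropic glutamate receptor gene reached 2-fold, although 16 of those 20 genes passed the F-test.

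Each strain was then set against the mean of the other 7, and a gene was counted as higher or lower at an adjusted p under 0.01 and a difference of at least 1.5-fold in limma. Differences are given as log2 values with their standard error (SE), so that 1 log2 unit is 2-fold. The 8 comparisons share libraries and are not compared with each other. In PWK/PhJ 6 members were higher (5.84% of all genes) and 2 lower (7.24%). In CAST/EiJ 1 was higher (5.14%) and 3 were lower (8.12%), and in NZO/HlLtJ 2 were higher (2.84%) and 4 lower (3.25%). A/J had 1 higher (3.3%) and 3 lower members (2.48%), C57BL/6J 1 higher (3.62%) and 3 lower (2.48%), and NOD/ShiLtJ 2 higher (3.6%) and 1 lower (2.32%). In 129S1/Svlmj 2 were higher (3.34%) and 0 lower (2.35%), and 31 were higher (22.3% of all genes) and 7 lower (20% of all genes) at an unadjusted p under 0.05. WSB/EiJ had 2 higher (3.18%) and 0 lower members (4.2%), and 16 were higher (17.6% of all genes) and 14 lower (29.2% of all genes) at an unadjusted p under 0.05. Chrna2 was among the higher members of each strain but CAST/EiJ and PWK/PhJ, and was the only higher member in A/J and C57BL/6J. The mean of the other strains then included its low CAST/EiJ and PWK/PhJ values. Fitted without those strains, Chrna2 was not counted as higher in any. In 129S1/Svlmj the median of the 55 members lay 0.14 log2 units above the other strains, against 0.00 for all genes. Single libraries changed some counts: 5 members were lower in A/J without A/J replicate 3 (Gabra4 and Chrnb1 added), 2 were higher in C57BL/6J without C57BL/6J replicate 1 (Chrna5 added), 1 was lower in 129S1/Svlmj without 129S1/Svlmj replicate 1 (Chrna4), and 1 was lower in WSB/EiJ without WSB/EiJ replicate 1 or without WSB/EiJ replicate 2 (Chrna5). Likewise 1 in place of 2 was higher in WSB/EiJ when 129S1/Svlmj replicate 3, NOD/ShiLtJ replicate 2, A/J replicate 3 or CAST/EiJ replicate 3 was left out, as Chrna2 fell under 1.5-fold. With an offset of 1 cpm, 7 members differed by at least 2-fold, as Gabrr3, Grin2c, Grin2d and Chrnb4 fell below that limit. At that offset the differences, among others, of Chrna5 in A/J, CAST/EiJ and PWK/PhJ, of Gabra4, Grik3, Chrnb4 and Chrnb1 in NZO/HlLtJ, of Grin2c in C57BL/6J, of Grin3a in 129S1/Svlmj and of Chrna2 in the 6 strains where it was higher also fell under 1.5-fold. Without the 3 lens-rich libraries 12 members differed by at least 2-fold, the same 11 and Grm8, and without the 2 libraries rich in oligodendrocyte transcripts the same 11 did; both sets were left out after the values were seen. Without the lens-rich libraries, 1 member in place of 2 was higher in 129S1/Svlmj.

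**Figure D2:**
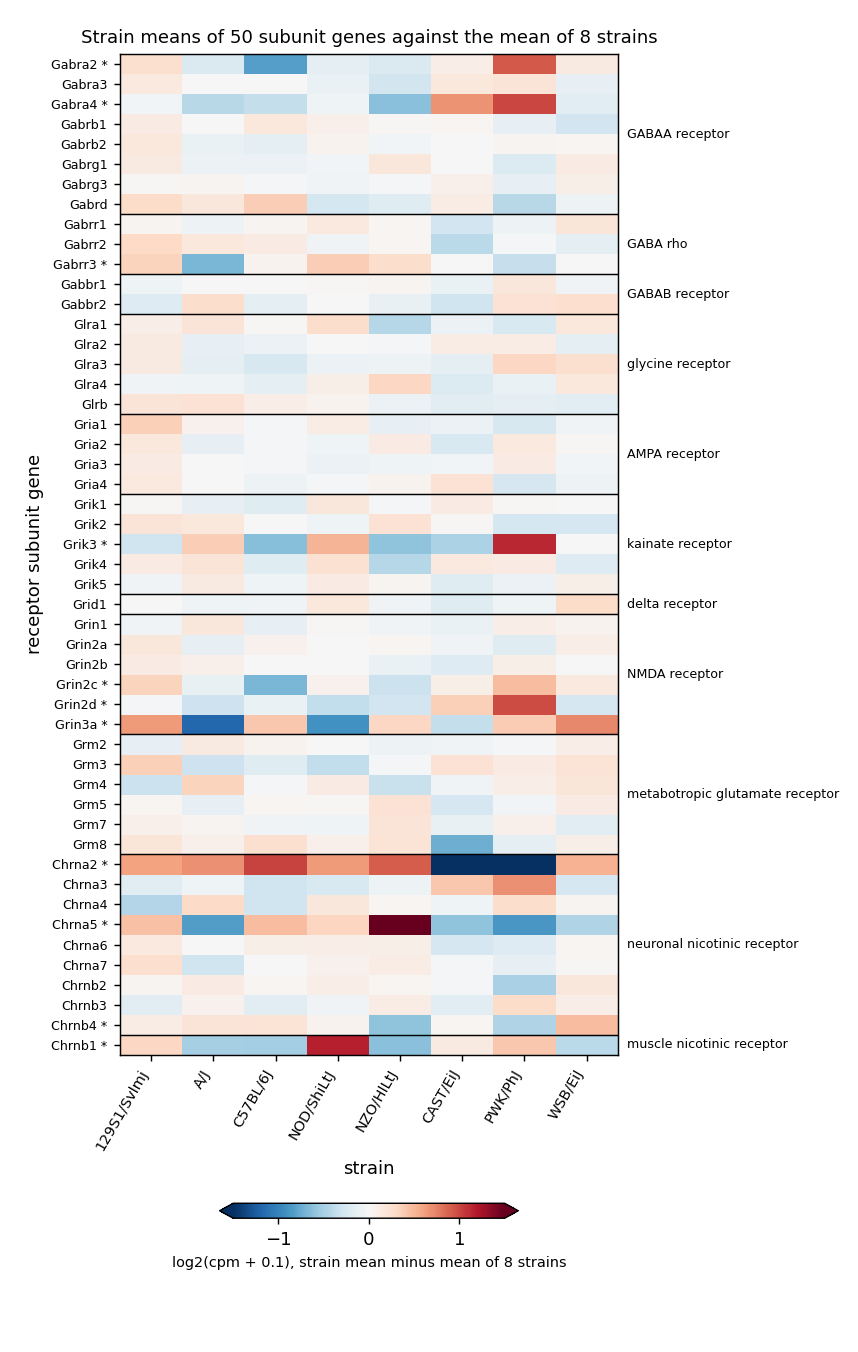
Strain means of 50 of the 55 tested subunit genes (vertical axis, by family) in the 8 strains (horizontal axis), as log2(cpm + 0.1) minus the mean of the 8 strains; colours are capped at 1.5 in both directions and an asterisk marks the 11 genes with at least a 2-fold difference. The low Chrna2 of PWK/PhJ and CAST/EiJ and the high Chrna5 of NZO/HlLtJ reach the ends of the scale.

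The GABAA receptor is a chloride channel assembled from alpha, beta and gamma or delta subunits, and its alpha subunit sets much of its response to GABA and to drugs. Gabra2 (chr5:70957597-71095849, minus strand), the alpha2 subunit, measured, in cpm per library, 16.8, 16.9 and 15.7 in 129S1/Svlmj, 14, 11.5 and 10.6 in A/J, 7.3, 8.28 and 7.78 in C57BL/6J, 13.4, 11.8 and 12.7 in NOD/ShiLtJ, 11.4, 12.8 and 11.8 in NZO/HlLtJ, 15.2, 14.6 and 16.1 in WSB/EiJ, 27.2, 25.9 and 26.1 in PWK/PhJ, and 15.3, 14.9 and 14.7 in CAST/EiJ. The 3 C57BL/6J libraries were the lowest of all 24 and the 3 PWK/PhJ libraries the highest, and neither group overlapped any other strain. In limma Gabra2 was lower in C57BL/6J by a log2 difference of -0.95 ± 0.06 from the mean of the other strains (adjusted p = 7.39e-12) and higher in PWK/PhJ by 1.05 ± 0.06 (adjusted p = 1.19e-12). Gabra4 (chr5:71569749-71658308, minus strand), the alpha4 subunit found in receptors outside synapses, measured, in cpm per library, 4.08, 3.87 and 4.01 in 129S1/Svlmj, 2.75, 2.87 and 3.62 in A/J, 2.81, 3.3 and 3.47 in C57BL/6J, 4.12, 4.18 and 3.49 in NOD/ShiLtJ, 3.0, 2.6 and 2.34 in NZO/HlLtJ, 3.68, 3.89 and 3.4 in WSB/EiJ, 9.08, 8.22 and 7.76 in PWK/PhJ, and 6.39, 6.97 and 6.59 in CAST/EiJ. PWK/PhJ was highest without overlap, CAST/EiJ came next without overlap, and the other 6 strains lay close together, with NZO/HlLtJ lowest on average and overlapping A/J and C57BL/6J in part. The log2 difference was 1.15 ± 0.08 in PWK/PhJ (adjusted p = 9.18e-11), 0.78 ± 0.08 in CAST/EiJ (adjusted p = 6.23e-08) and -0.71 ± 0.08 in NZO/HlLtJ (adjusted p = 2.33e-07). Without CAST/EiJ and PWK/PhJ the difference of NZO/HlLtJ was -0.41 and no longer 1.5-fold, and the range over strains fell from 1.63 to 0.58 log2 units. The remaining GABAA subunits tested ranged by 0.22 to 0.78 log2 units between strains. Lowest and highest strain means (± SD, n = 3) were 6.56 ± 0.269 cpm in NZO/HlLtJ and 9.12 ± 0.717 cpm in PWK/PhJ for Gabra3, 7.5 ± 0.615 cpm in WSB/EiJ and 10.3 ± 0.371 cpm in C57BL/6J for Gabrb1, and 14.6 ± 0.673 cpm in C57BL/6J and 17.9 ± 0.31 cpm in 129S1/Svlmj for Gabrb2. They were 3.11 ± 0.227 cpm in PWK/PhJ and 4.08 ± 0.607 cpm in NZO/HlLtJ for Gabrg1, and 2.19 ± 0.169 cpm in PWK/PhJ and 3.84 ± 0.349 cpm in C57BL/6J for Gabrd. The gamma3 subunit Gabrg3 ranged least, by 0.22 log2 units, from 9.43 ± 0.994 cpm in PWK/PhJ to 11 ± 0.66 cpm in WSB/EiJ, and did not pass the test (adjusted p = 0.28, limma).

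Gabra2 and Gabra4 lie in a cluster of GABAA genes on chromosome 5, with 473899 bases between them, and their strain means (log2) had a Pearson r of 0.76 over the 8 strains. Both were highest in PWK/PhJ, while C57BL/6J was lowest for Gabra2 only. Gabrg1, on the far side of Gabra2 in the same cluster, had an r of -0.17 with Gabra2 and -0.53 with Gabra4. Gabrb1, which starts beside Gabra4 on the opposite strand and shares 0.756% of the exon bases of Gabra4, had an r of -0.53 with Gabra2 and -0.24 with Gabra4. Over all 1485 pairs of tested members the median r was 0.05, with quartiles of -0.26 and 0.38. These values rest on 8 strain means taken from the same libraries and are given as a description.

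The rho subunits form GABA-gated channels that respond slowly and are known from the terminals of retinal bipolar cells. Gabrr3 (chr16:59407332-59464504, plus strand), the rho3 subunit, measured, in cpm per library, 12.1, 11.8 and 12.9 in 129S1/Svlmj, 5.39, 5.96 and 6.69 in A/J, 9.73, 9.55 and 11 in C57BL/6J, 12.3, 13.2 and 12.3 in NOD/ShiLtJ, 12, 11.7 and 11.3 in NZO/HlLtJ, 10.2, 9.36 and 9.83 in WSB/EiJ, 7.32, 7.97 and 7.58 in PWK/PhJ, and 9.59, 9.35 and 10.2 in CAST/EiJ. A/J was lowest and its libraries lay below all others, PWK/PhJ was next, and 129S1/Svlmj, NOD/ShiLtJ and NZO/HlLtJ were highest, with 129S1/Svlmj overlapping both of the others. The log2 difference of A/J from the other strains was -0.79 ± 0.05 in limma (adjusted p = 5.25e-11), and the range over strains was 1.06 log2 units, or 0.99 without A/J replicate 1. An antisense gene covers 6.53% of the exon bases of Gabrr3, and whether counting used the strand is not given in the sources used here. Gabrr1, the most abundant of the rho genes, ranged by 0.47 log2 units, from 21.3 ± 1.63 cpm in CAST/EiJ to 29.4 ± 1.43 cpm in WSB/EiJ. Gabrr2 was lowest in CAST/EiJ, at 9.47 ± 0.271 cpm and without overlap, and highest in 129S1/Svlmj at 15.4 ± 0.24 cpm. Of the GABAB pair, which must join to work at the cell surface, Gabbr1 ranged from 50 ± 3.43 cpm in CAST/EiJ to 60.2 ± 1.38 cpm in PWK/PhJ and Gabbr2 from 13.7 ± 2.59 cpm in CAST/EiJ to 20.1 ± 2.43 cpm in A/J.

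Glycine receptors mediate fast inhibition from small-field amacrine cells. Glra3, the alpha3 subunit and the family's highest gene in cpm, ranged by 0.55 log2 units, from 19 ± 1.26 cpm in C57BL/6J to 27.9 ± 1.85 cpm in PWK/PhJ (F-test adjusted p = 2.81e-06, limma). Glra1 had the widest range of the family, 0.69 log2 units, from 4.05 ± 0.314 cpm in NZO/HlLtJ to 6.59 ± 0.113 cpm in NOD/ShiLtJ, and was named after its values were seen. An antisense gene covers 5.84% of its exon bases. The other 2 genes had lowest and highest strain means of 0.775 ± 0.104 cpm in CAST/EiJ and 1.14 ± 0.0911 cpm in NZO/HlLtJ for Glra4, and 18.9 ± 1.31 cpm in CAST/EiJ and 24.6 ± 1.69 cpm in A/J for Glrb. Glra2, on the X chromosome, ranged least, by 0.28 log2 units, from 5.07 ± 0.608 cpm in WSB/EiJ to 6.14 ± 0.49 cpm in 129S1/Svlmj, and did not pass the test (adjusted p = 0.0163, limma).

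AMPA receptors carry most fast excitation, and all 4 genes passed the F-test, as did 70.5% of all genes tested. Their ranges were 0.22 to 0.60 log2 units. Gria2, the subunit that makes the channel impermeable to calcium, had the most reads of any member, with 130.03 ± 5.76 cpm in 129S1/Svlmj and 99.5 ± 3.59 cpm in CAST/EiJ, whose libraries lay below those of the other strains. Gria1 and Gria4 had lowest and highest strain means of 15.5 ± 0.748 cpm in PWK/PhJ and 23.6 ± 1.81 cpm in 129S1/Svlmj for Gria1, and 41.8 ± 0.48 cpm in PWK/PhJ and 57.6 ± 1.68 cpm in CAST/EiJ for Gria4. The libraries of these lowest and highest strains did not overlap those of any other strain for either gene. Gria3, on the X chromosome, ranged least, by 0.22 log2 units, from 19.2 ± 0.799 cpm in NOD/ShiLtJ to 22.3 ± 1.17 cpm in PWK/PhJ. Grid1, a delta subunit related to AMPA and kainate receptors by sequence, ranged by 0.45 log2 units. It had a lowest mean of 8.01 ± 0.712 cpm, in CAST/EiJ, and a highest of 11 ± 1.23 cpm, in WSB/EiJ.

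Kainate receptors are glutamate-gated channels known in the retina from OFF bipolar cells, which express Grik1. Grik1, the highest gene of the family, ranged by 0.36 log2 units, from 40.7 ± 0.729 cpm in C57BL/6J, below all other libraries, to 52.1 ± 1.3 cpm in NOD/ShiLtJ. Grik3 (chr4:125490700-125714173, plus strand), the GluK3 subunit, measured, in cpm per library, 3.51, 3.5 and 3.67 in 129S1/Svlmj, 5.9, 5.89 and 5.38 in A/J, 2.27, 3.22 and 2.96 in C57BL/6J, 5.92, 5.76 and 7.38 in NOD/ShiLtJ, 2.58, 2.63 and 3.53 in NZO/HlLtJ, 4.59, 4.65 and 4.13 in WSB/EiJ, 8.97, 9.82 and 10.7 in PWK/PhJ, and 3.51, 3.89 and 2.31 in CAST/EiJ. PWK/PhJ was highest without overlap, A/J and NOD/ShiLtJ followed and overlapped each other, and C57BL/6J, NZO/HlLtJ and CAST/EiJ were lowest and overlapped one another, with 129S1/Svlmj inside the range of CAST/EiJ. The log2 difference was 1.29 ± 0.12 in PWK/PhJ (adjusted p = 4.85e-09), -0.74 ± 0.12 in C57BL/6J (adjusted p = 2.15e-05) and -0.68 ± 0.12 in NZO/HlLtJ (adjusted p = 5.36e-05), all in limma. That of NOD/ShiLtJ, 0.58, was just under 1.5-fold and passed in 7 of the 24 fits without 1 library and in 2 other alternatives. Grik2 and Grik4 had lowest and highest strain means of 19.6 ± 0.441 cpm in PWK/PhJ and 27.3 ± 0.63 cpm in NZO/HlLtJ for Grik2, and 0.68 ± 0.15 cpm in NZO/HlLtJ and 1.12 ± 0.208 cpm in NOD/ShiLtJ for Grik4. Grik5, which joins other kainate subunits in mixed channels, ranged by 0.32 log2 units, from 6.21 ± 0.553 cpm in CAST/EiJ to 7.78 ± 0.728 cpm in A/J, and did not pass (adjusted p = 0.19, limma).

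NMDA receptors need the GluN1 subunit encoded by Grin1, joined by GluN2 or GluN3 subunits that set calcium entry and kinetics. Grin1 itself ranged by 0.29 log2 units, from 17.1 ± 2.31 cpm in C57BL/6J to 20.8 ± 1.21 cpm in A/J, and did not pass (adjusted p = 0.0271, limma). The antisense gene Grin1os covers 13.5% of its exon bases. Grin2b, the highest in cpm, ranged from 33.6 ± 2.54 cpm in CAST/EiJ to 41.9 ± 2.41 cpm in 129S1/Svlmj. Grin2a, the GluN2A subunit, had 17.5 ± 1.09 cpm in PWK/PhJ and 22.4 ± 0.444 cpm in 129S1/Svlmj, whose libraries lay above all others. Grin3a (chr4:49661611-49845744, minus strand), a GluN3 subunit that lowers calcium entry, measured, in cpm per library, 5.56, 4.91 and 5.08 in 129S1/Svlmj, 1.42, 1.6 and 1.19 in A/J, 4.01, 4.5 and 4.68 in C57BL/6J, 1.71, 1.84 and 1.58 in NOD/ShiLtJ, 4.01, 3.9 and 4.42 in NZO/HlLtJ, 4.83, 5.46 and 6.16 in WSB/EiJ, 4.59, 3.72 and 4.68 in PWK/PhJ, and 2.54, 2.58 and 2.49 in CAST/EiJ. A/J and NOD/ShiLtJ were lowest and overlapped each other, CAST/EiJ stood between them and the rest without overlap, and WSB/EiJ and 129S1/Svlmj were highest and overlapped. In limma the log2 difference was -1.35 ± 0.08 in A/J (adjusted p = 6.68e-12), -1.04 ± 0.08 in NOD/ShiLtJ (adjusted p = 7.20e-10), 0.82 ± 0.08 in WSB/EiJ (adjusted p = 3.81e-08) and 0.73 ± 0.08 in 129S1/Svlmj (adjusted p = 2.19e-07). Grin2d (chr7:45831883-45878378, minus strand), the GluN2D subunit of slowly closing channels, measured, in cpm per library, 0.764, 0.747 and 0.718 in 129S1/Svlmj, 0.708, 0.615 and 0.491 in A/J, 0.671, 0.806 and 0.656 in C57BL/6J, 0.538, 0.484 and 0.698 in NOD/ShiLtJ, 0.512, 0.791 and 0.549 in NZO/HlLtJ, 0.561, 0.738 and 0.59 in WSB/EiJ, 1.54, 1.62 and 1.66 in PWK/PhJ, and 1.04, 0.976 and 1.01 in CAST/EiJ. PWK/PhJ was highest without overlap, CAST/EiJ was next without overlap, and the other strains overlapped in part. Grin2d was higher in PWK/PhJ by 1.12 ± 0.11 log2 units (adjusted p = 4.08e-08, limma), and among the 6 strains without CAST/EiJ and PWK/PhJ its range was 0.34 log2 units and did not pass the test in limma. A gene on the opposite strand covers 9.66% of its exon bases. Grin2c (chr11:115249169-115267243, minus strand), the GluN2C subunit, measured, in cpm per library, 1.3, 1.52 and 1.26 in 129S1/Svlmj, 1.14, 0.68 and 1.17 in A/J, 0.543, 0.781 and 0.555 in C57BL/6J, 1.19, 0.954 and 1.2 in NOD/ShiLtJ, 0.776, 0.819 and 0.878 in NZO/HlLtJ, 1.29, 0.919 and 1.37 in WSB/EiJ, 1.16, 1.55 and 1.83 in PWK/PhJ, and 0.987, 1.44 and 1.01 in CAST/EiJ. Its values were low and mostly overlapped, with C57BL/6J lowest and PWK/PhJ highest on average. It was lower in C57BL/6J by a log2 difference of -0.78 ± 0.15 (adjusted p = 2.23e-04, limma), while with an offset of 1 cpm this difference was -0.40, under 1.5-fold.

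Metabotropic glutamate receptors act through G proteins, and those of the group that includes Grm4, Grm7 and Grm8 are known to dampen release from nerve terminals. All 7 genes had means above 0.5 cpm, and Grm2 ranged least, by 0.26 log2 units, being lowest in 129S1/Svlmj with 1.51 ± 0.327 cpm and highest in A/J with 1.82 ± 0.217 cpm (adjusted p = 0.96, limma). Grm5, the highest in cpm, ranged from 16.5 ± 0.15 cpm in CAST/EiJ, below all other libraries, to 22.9 ± 1.24 cpm in NZO/HlLtJ. Lowest and highest strain means of 3 further genes of the family were 1.17 ± 0.0532 cpm in NOD/ShiLtJ and 2.01 ± 0.124 cpm in 129S1/Svlmj for Grm3, 1.52 ± 0.214 cpm in 129S1/Svlmj and 2.47 ± 0.379 cpm in A/J for Grm4, and 15.4 ± 0.599 cpm in WSB/EiJ and 19.8 ± 0.884 cpm in NZO/HlLtJ for Grm7. Grm8 was chosen after its values were seen, as a gene counted in 1 strain. Grm8 (chr6:27275119-28135178, minus strand) measured, in cpm per library, 21.2, 22.1 and 20.6 in 129S1/Svlmj, 19.7, 18.8 and 21 in A/J, 22.2, 20.6 and 23.5 in C57BL/6J, 19.3, 19.8 and 20.3 in NOD/ShiLtJ, 23, 20.6 and 21.2 in NZO/HlLtJ, 19.1, 20.3 and 20.3 in WSB/EiJ, 17.8, 16.6 and 16.6 in PWK/PhJ, and 11.3, 11 and 11.5 in CAST/EiJ. CAST/EiJ was lowest and PWK/PhJ next, each without overlap, and the other 6 strains formed a continuous range. Grm8 was lower in CAST/EiJ by a log2 difference of -0.83 ± 0.04 in limma (adjusted p = 2.26e-13), and its range of 0.96 log2 units became 1.01 without C57BL/6J replicate 2, past 2-fold.

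Neuronal nicotinic receptors are acetylcholine-gated cation channels of alpha and beta subunits, and they held the widest differences between strains. Chrna2 (chr14:66135039-66152948, plus strand), the alpha2 subunit, measured, in cpm per library, 1.4, 1.56 and 1.17 in 129S1/Svlmj, 1.52, 1.6 and 1.27 in A/J, 1.81, 1.83 and 1.88 in C57BL/6J, 1.39, 1.2 and 1.65 in NOD/ShiLtJ, 1.93, 1.58 and 1.65 in NZO/HlLtJ, 1.29, 1.24 and 1.32 in WSB/EiJ, 0.0307, 0.0342 and 0.0427 in PWK/PhJ, and 0.288, 0.244 and 0.17 in CAST/EiJ. PWK/PhJ lay far below all strains, CAST/EiJ lay between, and the other 6 strains formed a continuous range from WSB/EiJ and 129S1/Svlmj up to C57BL/6J and NZO/HlLtJ. The PWK/PhJ values stood for 2, 2 and 3 reads, or 7 reads over 3 libraries, and the CAST/EiJ values for 53 reads over 3 libraries. Their exact Poisson 95% intervals, which cover counting error only, were 0.0145 to 0.0742 cpm and 0.175 to 0.305 cpm. The summed reads of C57BL/6J, 368 over 3 libraries, were 51.1 times those of PWK/PhJ relative to library size, with a counting interval of 24.5 to 128. In limma the adjusted p of the difference from the other strains was 8.56e-17 in PWK/PhJ and 5.69e-12 in CAST/EiJ, where the log2 difference was -1.77 ± 0.11. The offset of 0.1 cpm stands for 5.76 to 7.82 reads, more than any PWK/PhJ library held of Chrna2. The fitted PWK/PhJ level and its p therefore depend on that offset. Chrna2 was also counted as higher in each of the other 6 strains, by 0.59 log2 units in WSB/EiJ to 1.15 in C57BL/6J, from a mean of the others that included the low CAST/EiJ and PWK/PhJ values. Fitted without those strains, it was not counted as higher in any, and its range was 0.49 log2 units and did not pass the test in limma. The count in WSB/EiJ was also lost when 129S1/Svlmj replicate 3, NOD/ShiLtJ replicate 2, A/J replicate 3, WSB/EiJ replicate 3 or CAST/EiJ replicate 3 was left out, with log2 differences of 0.57 to 0.58, with Xist as a covariate (0.55) or after quantile normalization (0.58). That in 129S1/Svlmj was lost without the lens-rich libraries, at 0.58, and after quantile normalization, at 0.57, both just under 1.5-fold.

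Chrna5, Chrna3 and Chrnb4 form a tight cluster on chromosome 9, and their products can join in the same receptor. Chrna5 (chr9:54980880-55007779, plus strand), an accessory alpha subunit, measured, in cpm per library, 1.45, 1.7 and 1.69 in 129S1/Svlmj, 0.537, 0.648 and 0.633 in A/J, 1.42, 1.63 and 1.88 in C57BL/6J, 1.38, 1.53 and 1.51 in NOD/ShiLtJ, 3.65, 3.82 and 3.23 in NZO/HlLtJ, 1.11, 0.947 and 0.521 in WSB/EiJ, 0.627, 0.665 and 0.483 in PWK/PhJ, and 0.713, 0.758 and 0.718 in CAST/EiJ. NZO/HlLtJ was highest without overlap, 129S1/Svlmj, C57BL/6J and NOD/ShiLtJ were intermediate and overlapped, and A/J, PWK/PhJ, CAST/EiJ and WSB/EiJ were low, with WSB/EiJ replicate 3 apart from its other libraries. In limma the log2 difference was 1.76 ± 0.13 in NZO/HlLtJ (adjusted p = 1.99e-10), -1.0 ± 0.13 in PWK/PhJ (adjusted p = 1.78e-06), -0.96 ± 0.13 in A/J (adjusted p = 3.23e-06) and -0.69 ± 0.13 in CAST/EiJ (adjusted p = 2.00e-04), the last being -0.58 and just under 1.5-fold after quantile normalization. Chrna3 (chr9:55010111-55026562, minus strand), the alpha3 subunit, measured, in cpm per library, 2.52, 2.28 and 2.17 in 129S1/Svlmj, 2.33, 2.53 and 2.61 in A/J, 2.06, 1.82 and 2.47 in C57BL/6J, 2.38, 2.11 and 2.13 in NOD/ShiLtJ, 2.75, 2.17 and 2.48 in NZO/HlLtJ, 1.92, 2.31 and 2.29 in WSB/EiJ, 4.4, 4.4 and 3.93 in PWK/PhJ, and 3.71, 3.57 and 3.19 in CAST/EiJ. PWK/PhJ and CAST/EiJ were highest, without overlap with each other or with the other strains, which overlapped in part. Chrna3 was higher in PWK/PhJ by 0.78 ± 0.08 log2 units (adjusted p = 9.32e-08, limma), and its range of 0.98 log2 units rose past 2-fold without C57BL/6J replicate 3 (1.09) or PWK/PhJ replicate 3 (1.03). Chrnb4 (chr9:55028154-55048779, minus strand), the beta4 subunit, measured, in cpm per library, 0.715, 0.629 and 0.766 in 129S1/Svlmj, 0.682, 0.826 and 0.744 in A/J, 0.703, 0.793 and 0.774 in C57BL/6J, 0.735, 0.578 and 0.698 in NOD/ShiLtJ, 0.512, 0.288 and 0.392 in NZO/HlLtJ, 0.985, 0.947 and 0.833 in WSB/EiJ, 0.474, 0.29 and 0.61 in PWK/PhJ, and 0.754, 0.552 and 0.679 in CAST/EiJ. WSB/EiJ was highest without overlap, and NZO/HlLtJ and PWK/PhJ were lowest and overlapped. The log2 difference of NZO/HlLtJ was -0.69 ± 0.14 (adjusted p = 4.03e-04, limma), and -0.52 without NZO/HlLtJ replicate 2, under 1.5-fold, when the range of 1.06 also fell below 2-fold (0.91). The genes of the cluster did not run in parallel over the strains: the Pearson r of strain means (n = 8, log2) was -0.52 for Chrna3 and Chrna5, -0.54 for Chrna3 and Chrnb4 and -0.36 for Chrna5 and Chrnb4.

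**Figure D3:**
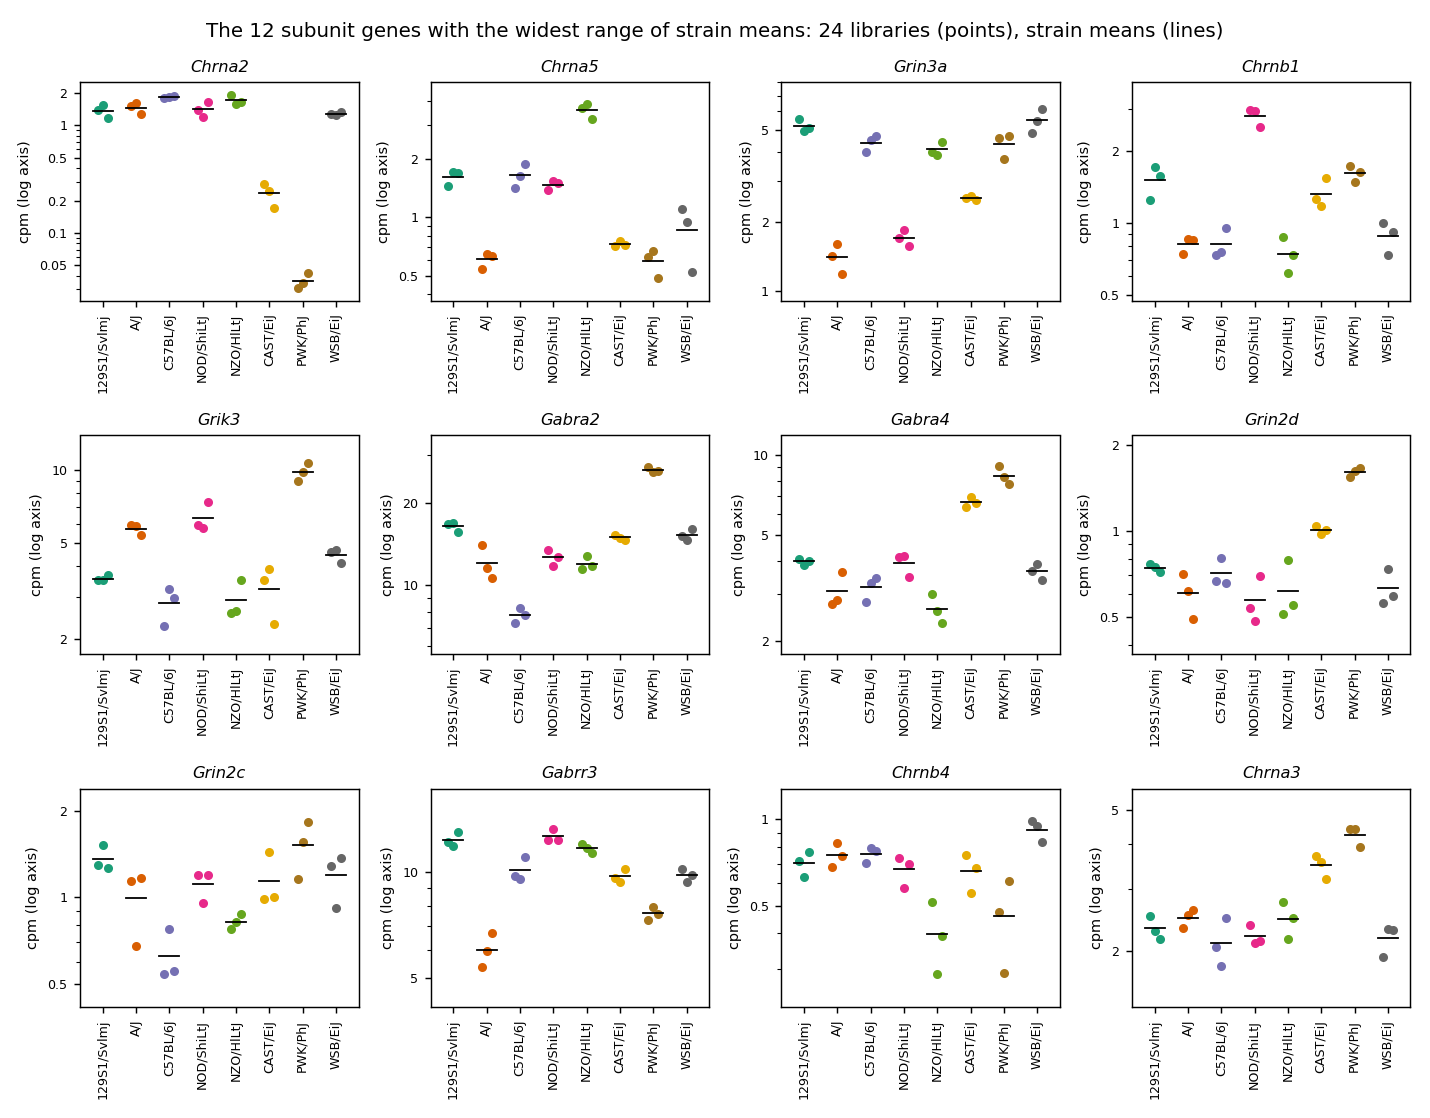
Levels of the 12 subunit genes with the widest range of strain means, in cpm (vertical axes, logarithmic, scaled to each gene), in the 8 strains (horizontal axes); points are the 3 libraries of a strain and lines their mean. Chrna2 spans from a mean of 0.0359 cpm in PWK/PhJ to 1.84 cpm in C57BL/6J, and Chrna5 from 0.592 cpm in PWK/PhJ to 3.57 cpm in NZO/HlLtJ.

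The more abundant nicotinic subunits were closer between strains. Chrna6, which marks subsets of ganglion cells, was the highest of the family and ranged by 0.40 log2 units, from 30.1 ± 1.39 cpm in CAST/EiJ to 39.7 ± 0.558 cpm in 129S1/Svlmj (F-test adjusted p = 8.02e-07, limma). The ganglion cell gene sum was also lowest in CAST/EiJ. PWK/PhJ, next lowest for Chrna6 at 31.2 cpm, had a ganglion cell sum of 246 cpm. A/J, next lowest for that sum at 203 cpm, had 35.9 cpm of Chrna6. The part of ganglion cells in the Chrna6 values was not tested. Chrnb2, the beta subunit of most high-affinity receptors, was named after its values were seen: it measured 17.5 ± 1.9 cpm in PWK/PhJ, below all other libraries, and 24.1 to 27.5 cpm on average in the other strains. The gene Adar overlaps 16.3% of its exon bases on the opposite strand. The other 3 tested genes had lowest and highest strain means of 3.49 ± 0.732 cpm in 129S1/Svlmj and 5.79 ± 0.333 cpm in A/J for Chrna4, 2.71 ± 0.106 cpm in A/J and 4.01 ± 0.354 cpm in 129S1/Svlmj for Chrna7, and 9.58 ± 0.243 cpm in C57BL/6J and 13 ± 0.267 cpm in PWK/PhJ for Chrnb3. Chrna7, whose product forms receptors of alpha subunits alone, was below all other libraries in A/J, and Chrnb3 was above them in PWK/PhJ. Chrnb1 (chr11:69784036-69795943, minus strand), the beta subunit of the muscle receptor, measured, in cpm per library, 1.25, 1.72 and 1.58 in 129S1/Svlmj, 0.747, 0.858 and 0.854 in A/J, 0.735, 0.755 and 0.959 in C57BL/6J, 2.98, 2.93 and 2.52 in NOD/ShiLtJ, 0.878, 0.618 and 0.737 in NZO/HlLtJ, 1.0, 0.738 and 0.92 in WSB/EiJ, 1.73, 1.48 and 1.63 in PWK/PhJ, and 1.26, 1.18 and 1.54 in CAST/EiJ. NOD/ShiLtJ was highest without overlap, 129S1/Svlmj, CAST/EiJ and PWK/PhJ were intermediate and overlapped, and A/J, C57BL/6J, NZO/HlLtJ and WSB/EiJ were low and overlapped. The log2 difference was 1.33 ± 0.11 in NOD/ShiLtJ (adjusted p = 1.18e-09) and -0.71 ± 0.11 in NZO/HlLtJ (adjusted p = 1.63e-05), both in limma. That of C57BL/6J, -0.58, was under 1.5-fold and passed in 6 of the 24 fits without 1 library and in 2 other alternatives. The skeletal muscle genes, 7 of which had a mean under 0.5 cpm, summed to 1.37, 1.49 and 1.27 cpm in NOD/ShiLtJ. Their sum was at most 4.61 cpm in any library. NOD/ShiLtJ replicates 2 and 3 were the lens-rich and oligodendrocyte-rich libraries of the strain, and replicate 1, with neither, had 2.98 cpm of Chrnb1. The part of neighbouring tissue in the Chrnb1 values was not tested.

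The 8 members under a mean of 0.5 cpm were not tested. Gabrq averaged 0.435 cpm, with strain means from 0.274 cpm in NOD/ShiLtJ to 0.688 cpm in PWK/PhJ and, fitted with no filter, a range of 1.06 log2 units, past 2-fold, and Gabra5 averaged 0.168 cpm. Grin3b averaged 0.163 cpm, and 32.1% of its exon bases are shared with Tmem259 on the opposite strand. Gabre (0.0484 cpm), Chrna10 (0.0315 cpm), Chrna1 (0.0269 cpm), Chrne (0.0276 cpm) and Chrng (0.00803 cpm) averaged at or below the level of a few reads. Of the muscle receptor, only Chrnb1 was thus above 0.5 cpm among the 4 genes analysed.

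Proteins that anchor or modify the receptors, and those that make or move their transmitters, were read from lists. Of 50 genes for scaffolds and auxiliary subunits, 47 were tested and 2 differed by at least 2-fold between strains (4.26%, against 20.1% of all genes). Lynx1, a membrane-tethered modulator of nicotinic receptors, ranged from 34.2 cpm in PWK/PhJ to 74.8 cpm in CAST/EiJ. Cnih3, an auxiliary protein of AMPA receptors, ranged from 0.837 cpm in CAST/EiJ to 2.3 cpm in PWK/PhJ. When each strain was set against the others in limma, 3 of the 47 genes were higher in PWK/PhJ (Homer2, Cnih3 and Shisa7; 5.84% of all genes) and 1 lower (Lynx1; 7.24%), 1 was higher (Lynx1; 5.14%) and 1 lower (Cnih3; 8.12%) in CAST/EiJ and 1 was higher in WSB/EiJ (Homer3; 3.18%). Gephyrin (Gphn), which anchors inhibitory receptors, ranged from 25 cpm in CAST/EiJ to 30 cpm in 129S1/Svlmj, while Dlg4, a scaffold of glutamate receptors, was lowest in 129S1/Svlmj with 106 cpm and highest in CAST/EiJ with 166 cpm. All 22 genes for synthesis and transport were tested, of which 6 (27.3%) differed by at least 2-fold, and 8 of the 22 are also in the cell type lists. In PWK/PhJ 4 of the 22 were higher in limma (Slc1a1, a glutamate transporter, Chat, Slc18a3 and Slc5a7), against 5.84% of all genes, and the difference between these shares was not tested. Chat, which makes acetylcholine, ranged from 2.14 cpm in NZO/HlLtJ to 4.74 cpm in PWK/PhJ, Slc18a3, its vesicular transporter, reached 2.23 cpm in PWK/PhJ against 0.735 cpm in 129S1/Svlmj, and Slc5a7, which takes up choline, ranged from 3.23 cpm in NZO/HlLtJ to 9.5 cpm in PWK/PhJ. Slc5a7 was also lower in NOD/ShiLtJ (2.32% of all genes) and NZO/HlLtJ (3.25%). Slc17a8, the vesicular glutamate transporter 3, was higher in C57BL/6J (3.62% of all genes) and lower in A/J (2.48%), ranging from 2.69 cpm in A/J to 6.32 cpm in C57BL/6J. Slc6a13, a GABA transporter, ranged from 0.416 cpm in NZO/HlLtJ to 3.17 cpm in C57BL/6J (F-test adjusted p = 0.00514, limma). Despite this range it was not counted as higher or lower in any single strain. The enzyme Ache, which breaks down acetylcholine, ranged from 9.81 cpm in CAST/EiJ to 13.6 cpm in A/J, a difference under 2-fold. The amacrine cell sum of PWK/PhJ, 269.7, 255 and 258 cpm, lay within the range of the other strains. Most of that sum came from genes other than Chat, such as Pax6 with 101 cpm in PWK/PhJ. In limma 1 of its 8 genes, Chat, was higher in PWK/PhJ (5.84% of all genes). The part of cell numbers in the values of Chat, Slc18a3 and Slc5a7 was not tested.

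A RefSeq promoter sequence (GRCm38) was matched to 44 of the 63 members, and its 250 bases before the transcription start were read. Some of these windows hold bases of GENCODE exons, all 250 in Grin2d and Glra4, and the values below include them. The median number of CpG dinucleotides was 9.5 for the members and 6 for 27025 genes, and it was 12 for the 9 matched members with 2-fold differences and 13 for the 27 tested without. On either strand, TATAAA occurred in 11.4% of the members' windows and 13% of all, TAATCC in 6.82% and 6.38%, and CCGCCC in 54.5% and 32.9%. The windows of Grik3 (chr4:125490446-125490695, plus strand, 42 CpG), Chrna3 (chr9:55026563-55026812, minus strand, 13 CpG) and Chrna5 (chr9:54980630-54980879, plus strand, 3 CpG) are shown. These genes were among the 12 members with the widest range, and Chrna3 and Chrna5 are neighbours with different patterns. Chrna3, with a range of 0.98 log2 units, stayed just under 2-fold. Each window is the reference sequence, written 5′ to 3′ on the strand of the gene, with CpG in capitals. Differences between the strains in these sequences were not analysed here.
Grik3: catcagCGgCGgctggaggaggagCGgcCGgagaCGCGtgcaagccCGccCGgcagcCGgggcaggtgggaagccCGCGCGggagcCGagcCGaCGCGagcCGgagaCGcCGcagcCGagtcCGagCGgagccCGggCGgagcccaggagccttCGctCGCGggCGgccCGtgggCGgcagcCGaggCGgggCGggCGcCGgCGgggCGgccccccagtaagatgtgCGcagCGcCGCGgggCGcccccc
Chrna3: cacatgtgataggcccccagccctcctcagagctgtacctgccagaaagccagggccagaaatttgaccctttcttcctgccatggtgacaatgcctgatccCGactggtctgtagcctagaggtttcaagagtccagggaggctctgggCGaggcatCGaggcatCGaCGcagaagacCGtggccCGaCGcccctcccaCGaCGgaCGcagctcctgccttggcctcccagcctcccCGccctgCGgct
Chrna5: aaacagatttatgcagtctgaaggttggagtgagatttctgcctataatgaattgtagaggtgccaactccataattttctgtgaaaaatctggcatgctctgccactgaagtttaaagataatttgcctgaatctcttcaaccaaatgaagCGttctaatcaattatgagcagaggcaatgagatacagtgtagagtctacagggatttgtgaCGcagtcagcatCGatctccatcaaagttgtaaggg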

How the data were processed

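Reads were trimmed by the authors and, for every strain, aligned to GRCm38 with STAR. Partek Flow (expectation-maximization quantification) gave gene counts, which the authors deposited as CPM values (each count divided by the library total, per 1000000 reads), with 0.0001 added. GRCm38 is the genome of C57BL/6J, and the effect of strain sequence on alignment was not tested. The deposited cpm were used with no further scaling. Genes with a mean under 0.5 cpm were left out, log2(cpm + 0.1) was fitted with limma 3.58.1 in R 4.3.3 (eBayes with a trend in the mean), and p-values were adjusted by Benjamini-Hochberg, for the F-test over genes and for the strain differences over genes and the 8 strains together. The scripts were tested on simulated data. Genes named were the 12 members with the widest range, the member highest and lowest in each strain among those counted, and the member of each family with the highest mean and, where 3 or more were tested, the smallest range. All other members were named after their values were seen. Members and lists were chosen with earlier results of these data known. Alternatives were an offset of 1 cpm, no filter, a mean of 5 cpm, median-ratio scaling, quantile normalization, Storey q-values, the fit without CAST/EiJ and PWK/PhJ, Xist as a covariate and leaving out each library, and, added after seeing the data, leaving out the lens-rich libraries (over 200 cpm) or the oligodendrocyte-rich libraries (over 30 cpm). Exon lengths came from GENCODE vM21, whose gene starts and ends equal those of the table for 63 of 63 members, while the authors name RefSeq as annotation; the effect on values per kilobase was not tested.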

Additional observations from a re-analysis of the deposited data

How the results depend on the processing

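With an offset of 1 cpm, 7 members differed by at least 2-fold, 0 were higher in 129S1/Svlmj, A/J and C57BL/6J, 1 was higher in each of NOD/ShiLtJ, NZO/HlLtJ and WSB/EiJ, 0 were lower in NZO/HlLtJ and 1 was lower in PWK/PhJ. A larger offset shrinks the differences of genes with few reads. Tested from a mean of 5 cpm, which leaves fewer genes, 2 members differed by at least 2-fold, 2 were higher in PWK/PhJ and 0 in each of the other 7 strains, 1 was lower in each of A/J, C57BL/6J and CAST/EiJ, and 0 were lower in NOD/ShiLtJ, NZO/HlLtJ and PWK/PhJ. After quantile normalization 1 member was higher in 129S1/Svlmj and 1 in WSB/EiJ, Chrna5 in CAST/EiJ fell under 1.5-fold, and Chrnb2 in PWK/PhJ and Chrnb1 in A/J and C57BL/6J newly passed; the cause was not tested. Without CAST/EiJ and PWK/PhJ, which leaves fewer strains, 1 was higher in each of 129S1/Svlmj, NZO/HlLtJ and WSB/EiJ, 0 in A/J and C57BL/6J, and 1 was lower in WSB/EiJ. In that fit the log2 difference of Chrna2 reversed to -0.15 in 129S1/Svlmj, -0.046 in A/J, -0.11 in NOD/ShiLtJ and -0.25 in WSB/EiJ. With Xist as a covariate 1 member was higher in WSB/EiJ, and without the lens-rich libraries 1 was higher in 129S1/Svlmj. When the 24 libraries were left out 1 at a time, the members lower in 129S1/Svlmj numbered 0 to 1, lower in A/J 3 to 5, higher in C57BL/6J 1 to 2, higher in WSB/EiJ 1 to 2 and lower in WSB/EiJ 0 to 1. In those 24 fits the counted differences of members in single strains kept direction and threshold in 786 cases and fell short of it in 6, and 27 not counted in the main fit newly passed, among them Grik3 in NOD/ShiLtJ in 7 fits and Chrnb1 in C57BL/6J in 6. Ranges over strains kept their side of the 2-fold rule in 1315 cases, fell short in 2 and newly passed in 3. Under the other alternatives the differences kept direction and threshold in 261 cases, fell short in 25 and reversed in 4, and 9 newly passed, 2 of them of genes under the filter. The ranges kept their side in 523 cases, fell short in 7 and newly passed in 1, besides Gabrq, under the filter, which passed when no filter was set. No scaling moved the median of all genes by more than 0.044 log2 units in any strain. Depth limits Chrna2 in PWK/PhJ, with 7 reads over 3 libraries, and the 8 members under 0.5 cpm.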
